A study of Mus musculus with 16 samples.

Results

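Kirrel2, Kirrel3, Pcdh10, Pcdh17 and Pcdh19 encode adhesion molecules of the cell surface that are found on the axons of olfactory sensory neurons. They were chosen by name, each had 1 feature on the array, and all of them were measured, so that 5 of the 19505 genes in the data are described. Their levels were read on 16 Affymetrix arrays in sorted cells of the olfactory mucosa of C57BL/6 mice that carry the S100a5-tauGFP reporter, in which green fluorescent protein stands under the control of S100a5, a calcium-binding protein gene whose transcription follows the activity of the neuron. The Kentucky assay uses this reporter to sort neurons by their response to an odor in the living animal.

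All mice, controls included, carried the reporter. Males and females, 24 mice aged 7 to 12 weeks, were kept in clean air for 40 h at a flow of 3.1 L/min. From 26 h on they received pulses of 10 s every 20 min. The odor mice received whiskey lactone and the vehicle mice filtered air. Cells of 3 mice were pooled, 4 pools per treatment, and each pool was sorted into a GFP+ and a GFP- fraction, which gave 4 groups of 4 arrays. The titles and the cell type field of the labels name the fraction in opposite ways on all 16 arrays. Groups are named here by the titles, and differences between fractions are titled GFP+ minus titled GFP-. If the cell type field holds instead, each fraction difference below changes sign and the fraction names of the odor comparisons swap, while odor minus vehicle keeps its sign. S100a5, the reporter's own gene, differed by -1.29 on the log2 scale over all pools. It was thus lower in the GFP+ fraction by the titles and higher in it by the cell type field. Which label is right was not tested.

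Axons of neurons that express the same odorant receptor converge on shared glomeruli of the olfactory bulb. The receptor drives cyclic AMP signalling, through basal signalling in immature neurons and through odor-evoked signalling later, and this sets the levels of axonal adhesion molecules by which like axons are sorted together. Kirrel2 and Kirrel3 are homophilic adhesion molecules of the immunoglobulin superfamily, known for complementary patterns among glomeruli, Kirrel2 going with high and Kirrel3 with low activity. Pcdh10, Pcdh17 and Pcdh19 are non-clustered protocadherins, cadherin-related proteins that also bind their own kind and that mark subsets of neurons and glomeruli.

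The upstream sequences of Kirrel2 and Pcdh10 are printed because these were the members whose signal was higher in every odor pool than in the vehicle pool of the same number. Each is the 250 bases before the gene's start, 5′ to 3′ on the gene's strand, from RefSeq (GRCm38.p6), with chr7:30457516-30457765 on the minus strand for Kirrel2 and chr3:45378148-45378397 on the plus strand for Pcdh10. The tables matched 4 of the 5 genes, not Kirrel3. Capitals mark TGACG, the core of the cyclic AMP response element.
Kirrel2: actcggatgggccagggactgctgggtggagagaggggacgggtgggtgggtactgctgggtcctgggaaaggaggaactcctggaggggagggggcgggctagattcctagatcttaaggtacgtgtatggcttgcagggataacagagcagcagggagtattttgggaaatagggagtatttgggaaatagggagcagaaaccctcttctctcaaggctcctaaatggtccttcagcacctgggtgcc
Pcdh10: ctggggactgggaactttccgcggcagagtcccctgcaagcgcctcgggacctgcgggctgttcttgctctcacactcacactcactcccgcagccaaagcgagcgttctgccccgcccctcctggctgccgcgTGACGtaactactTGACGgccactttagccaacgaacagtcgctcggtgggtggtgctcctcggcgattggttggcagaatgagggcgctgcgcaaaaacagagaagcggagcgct
The Pcdh10 sequence held 2 matches to TGACG, the first bases of which lie at -116 and -103 from the start. On either strand, TGACG was in 17.8% of the 32851 promoter windows of the same length, and 3.9% held 2 or more matches. The Kirrel2, Pcdh17 and Pcdh19 windows held 0 matches to it. The full palindrome TGACGTCA, which contains TGACG and is in 1.55% of the windows, the Ebf motif CCCNNGGG, in 11.8%, and the homeodomain motif TAATTA, in 4.84%, had 0 matches in the 4 windows. The G and C share was 56.4% for Kirrel2, 63.2% for Pcdh10, 64.8% for Pcdh17 and 69.2% for Pcdh19, beside a median of 52.4% over all windows. A match describes letters in this window and is no measured binding site.

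Values are log2 signals, so that 1 unit is a doubling of the signal. The median of all features, controls included, lay between 6.08 and 6.47 on the 16 arrays. The 95th percentile of the 5222 negative control features lay between 9.09 and 10.1. Kirrel2, Kirrel3, Pcdh17 and Pcdh19 were above that percentile on 16 of 16 arrays, and Pcdh10 on 4 of 16, all odor arrays titled GFP-. S100a5, the reporter's own gene, was at 14.93 to 15.64 on the 8 arrays titled GFP+ and at 16.23 to 16.74 on the 8 titled GFP-, a difference of -1.29 ± 0.07 (limma, fit ± SE, 8 pools). On the arrays titled GFP+, the mean log2 signal of 16 markers of mature olfactory neurons was 15.61 to 15.87. It was 15.93 to 16.04 on those titled GFP-. Over all pools 14 of the 16 passed as lower in titled GFP+ and 0 as higher, beside 27.3% and 15.7% of all genes. Their median was -0.29, beside -0.16 for all genes, and Omp, the maturity marker, differed by -0.10. The mean of 10 neutrophil markers was 13.68 to 15.84 in titled GFP+ against 5.89 to 7.37 in titled GFP-. All 10 neutrophil, 13 of 13 macrophage, 11 of 11 microvillar and 9 of 12 sustentacular markers were higher in the arrays titled GFP+. So were 15 of 18 immediate early genes, which respond to activity and to cell handling (median 2.45), 6 of 7 basal progenitor, 4 of 4 erythroid and 7 of 15 immature neuron markers, 3 of the last being lower. The part of these lists in the fraction differences of the 5 genes was not tested. In sorted pools, fewer cells of a type and less RNA per cell cannot be told apart.

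Kirrel2 was lower in the titled GFP+ fraction of every pool, Pcdh10 and Pcdh17 likewise, while Kirrel3 was higher in 7 of 8 pools. Over all 8 pools, Kirrel2, Pcdh10 and Pcdh17 fell by 1.01, 1.15 and 0.86 on the log2 scale, Kirrel3 rose by 0.30 and Pcdh19 did not pass the test. Thus 3 of the 5 genes were lower and 1 was higher, beside 27.3% of all 19505 genes lower and 15.7% higher (limma with the pool as a block, adjusted p under 0.05). That split of all genes moves with the scaling of the arrays, from 3070 higher and 5323 lower as deposited to 2103 and 15071 with median centring, 1325 and 17245 with centring on housekeeping genes, 3825 and 2518 with cyclic loess, and 5628 and 1147 with centring on mature neuron genes. Kirrel2, Pcdh10 and Pcdh17 were lower, past the threshold, under all of these scalings.

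Kirrel2, the adhesion gene linked to high activity, had vehicle signals of 12.95, 13.72, 14.27 and 13.81 on the arrays titled GFP+ and 14.70, 14.65, 15.13 and 14.69 on those titled GFP-, in the order of pools 1 to 4. All 4 vehicle values of the titled GFP+ fraction were below all 4 of the other fraction, a separation seen for 13.6% of genes in this direction. In the odor pools the signals were 14.14, 14.87, 15.18 and 14.60 against 15.40, 15.50, 16.18 and 15.39. These groups did not overlap either, as held for 14.3% of genes. The difference was -1.10 ± 0.14 in vehicle pools (2.15-fold lower, adjusted p = 4.94e-05) and -0.92 ± 0.14 in odor pools (1.89-fold lower, adjusted p = 0.000226). Pool 1 of the vehicle mice stood apart with a difference of -1.75, the other 3 lying between -0.93 and -0.86. From lowest to highest, the group means were 13.69 ± 0.55 (SD, n = 4) in vehicle GFP+, 14.70 ± 0.44 in odor GFP+, 14.79 ± 0.22 in vehicle GFP- and 15.62 ± 0.37 in odor GFP-. The lower 3 overlap with their neighbours in this order, and odor GFP- lies wholly above vehicle GFP-.

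Kirrel3, the partner gene linked to low activity, varied over a narrow range. Its vehicle signals were 13.12, 13.18, 13.09 and 13.68 on the arrays titled GFP+ and 12.66, 12.81, 12.85 and 13.16 on those titled GFP-. The 2 fractions overlapped through pool 4, the brightest in each, although every vehicle pool had the higher value in the titled GFP+ fraction, by 0.24 to 0.52. The odor signals were 13.00, 13.41, 12.84 and 13.57 against 12.89, 13.01, 12.85 and 13.20. Pool 3 of the odor mice showed no rise, with a difference of -0.01. The fit gave 0.39 ± 0.09 in vehicle pools (1.31-fold higher, adjusted p = 0.00727) and 0.22 ± 0.09 in odor pools (adjusted p = 0.102). The order of the group means ran from 12.87 ± 0.21 in vehicle GFP- through 12.99 ± 0.16 in odor GFP- and 13.20 ± 0.34 in odor GFP+ to 13.26 ± 0.28 in vehicle GFP+, and no 2 neighbours were separated. The sign of the Kirrel3 difference depends on the array scaling. With median centring it was 0.0253 in vehicle pools (adjusted p = 0.828) and -0.16 in odor pools, and with housekeeping centring it was -0.52 and -0.78. Kirrel3 stood 0.46 above the median of all genes over the 8 pools, a gap that no centring moves, where the median of all genes was -0.16 as deposited, -0.53 with median centring, -1.11 with housekeeping centring and 0.13 with mature neuron centring. Without the pool as a block, the vehicle difference lost its call (adjusted p = 0.0952).

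**Figure D1:**
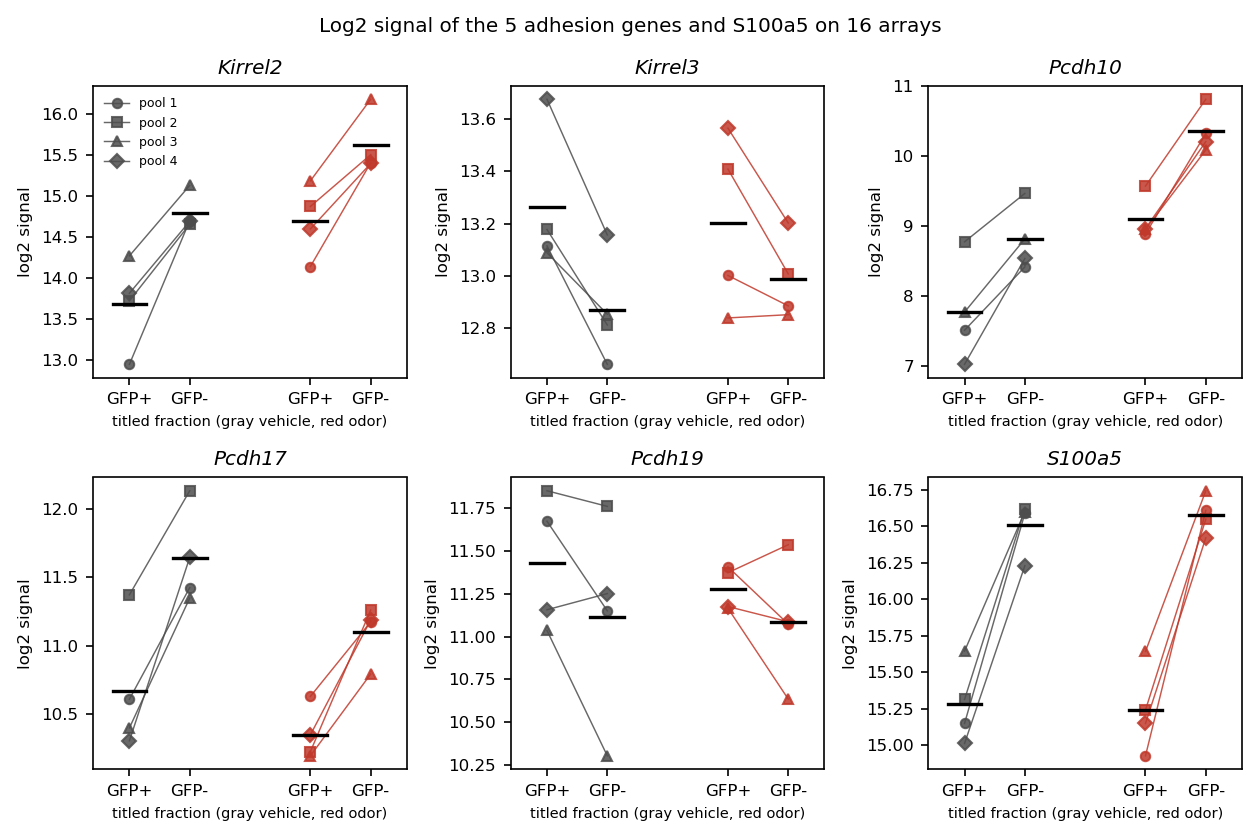
Log2 signal of Kirrel2, Kirrel3, Pcdh10, Pcdh17, Pcdh19 and S100a5 on the 16 arrays, by titled fraction for vehicle pools (gray) and odor pools (red). Each symbol is 1 array, thin lines join the fractions of a pool, black bars are group means of 4 arrays, and the vertical scale differs between genes. Kirrel2, Pcdh10, Pcdh17 and S100a5 lines climb to the titled GFP- fraction in all 8 pools. Within each fraction, the Kirrel2 and Pcdh10 means stand higher in red than in gray, with Kirrel2 values overlapping in titled GFP+.

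Centring shifts all genes of an array alike, so that it leaves the gap between 2 genes as it was. The fraction difference of Kirrel2 was below that of Kirrel3 in 8 of 8 pools, by 0.981 to 2.2, with a mean gap of -1.32 ± 0.39 (SD, n = 8 pools). The mean gap was -1.41 ± 0.347 for Pcdh10 against Pcdh19 and -1.12 ± 0.295 for Pcdh17 against Pcdh19, each negative in 8 of 8 pools. These 3 pairs were chosen after their values were seen and are given as a description, with no test.

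Pcdh10, a homophilic protocadherin, had the dimmest signal. On vehicle arrays it was at 7.51, 8.78, 7.77 and 7.03 in the titled GFP+ fraction and at 8.42, 9.47, 8.82 and 8.54 in the titled GFP- fraction. The 2 groups overlapped only through pool 2, the brightest of each, and every pool was lower in titled GFP+. On odor arrays it was at 8.89, 9.57, 8.96 and 8.97 against 10.33, 10.81, 10.09 and 10.21, with no overlap, as held for 14.3% of genes. The difference was -1.04 ± 0.15 in vehicle pools (2.05-fold lower, adjusted p = 0.000186) and -1.26 ± 0.15 in odor pools (2.40-fold lower, adjusted p = 2.96e-05). Pcdh10 lay close to the negative controls, the part of which in these folds was not tested. It exceeded 73.5% to 91.1% of the negative controls on vehicle arrays titled GFP+, 90.2% to 94.5% on vehicle arrays titled GFP-, 93.24% to 94.98% on odor arrays titled GFP+ and 96.3% to 97.4% on odor arrays titled GFP-. The group means followed that order, at 7.77 ± 0.74, 8.81 ± 0.47, 9.10 ± 0.32 and 10.36 ± 0.32 (SD, n = 4). The first 3 overlapped with their neighbours and odor GFP- stood alone at the top.

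Pcdh17, a protocadherin of the same subfamily, was at 10.61, 11.37, 10.40 and 10.30 on vehicle arrays titled GFP+ and at 11.42, 12.13, 11.35 and 11.64 on those titled GFP-. Pool 2 was again the brightest in both fractions, and its titled GFP+ value of 11.37 is what made the groups overlap. In odor pools the signals were 10.63, 10.22, 10.19 and 10.35 against 11.17, 11.26, 10.79 and 11.19, with no overlap. Such a separation was seen for 14.3% of genes in this direction. The fit gave -0.97 ± 0.13 in vehicle pools (1.96-fold lower, adjusted p = 7.44e-05) and -0.76 ± 0.13 in odor pools (1.69-fold lower, adjusted p = 0.000574). The order of the means was odor GFP+ at 10.35 ± 0.20, vehicle GFP+ at 10.67 ± 0.48, odor GFP- at 11.10 ± 0.21 and vehicle GFP- at 11.64 ± 0.35. Unlike Kirrel2 and Pcdh10, its odor means lay below its vehicle means in each fraction, and only odor GFP- and vehicle GFP- were separated among neighbours.

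Pcdh19, an X-linked protocadherin, was at 11.68, 11.85, 11.04 and 11.16 on vehicle arrays titled GFP+ and at 11.15, 11.76, 10.30 and 11.25 on those titled GFP-. Its odor signals were 11.41, 11.37, 11.17 and 11.18 against 11.07, 11.54, 10.64 and 11.09. The fractions overlapped in both treatments, and 2 of the 8 pools, vehicle pool 4 and odor pool 2, ran against the other 6. The difference was 0.31 ± 0.15 in vehicle pools (adjusted p = 0.145), 0.20 ± 0.15 in odor pools (adjusted p = 0.349) and 0.26 ± 0.11 over all pools (adjusted p = 0.0676). It crossed the threshold over all pools with cyclic loess (0.40, adjusted p = 0.0118), with mature neuron centring (0.54, adjusted p = 0.00431) and without odor pool 2 or vehicle pool 4 (each 0.32), and was negative with median centring (-0.12) and housekeeping centring (-0.70). No neighbours were separated in the order of its means, which were 11.08 ± 0.37 in odor GFP-, 11.12 ± 0.60 in vehicle GFP-, 11.28 ± 0.13 in odor GFP+ and 11.43 ± 0.40 in vehicle GFP+.

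**Figure D2:**
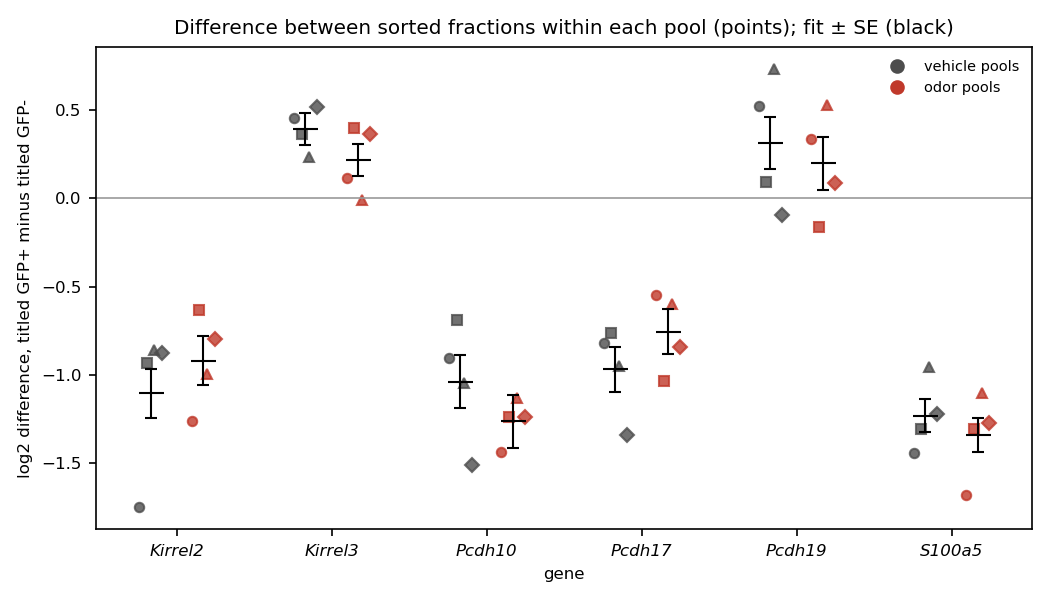
Log2 difference between the sorted fractions, titled GFP+ minus titled GFP-, within each of the 4 vehicle pools (gray) and 4 odor pools (red), for the 5 genes and S100a5. Symbols tell pool numbers apart, and black marks are the limma fit ± SE. Kirrel2, Pcdh10, Pcdh17 and S100a5 lie below 0 in all 8 pools, and Kirrel3 and Pcdh19 lie around or above it.

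By treatment, the fraction difference passed the test in vehicle pools for 3 members lower and 1 higher, beside 13.6% of genes lower and 12.3% higher, and in odor pools for 3 lower and 0 higher, beside 14.7% and 12.8%. The missing Kirrel3 call in odor pools is not a shown difference between treatments. The change of the fraction difference, odor minus vehicle, was called for 0 of the 5 genes and for 0.00513% of all genes, 1 gene, the odorant receptor gene Olfr221, named after its value was seen (638 genes had an unadjusted p under 0.05 in limma). The interval of that change ran from -0.24 to 0.61 for Kirrel2, from -0.46 to 0.11 for Kirrel3, from -0.69 to 0.24 for Pcdh10, from -0.18 to 0.60 for Pcdh17 and from -0.57 to 0.34 for Pcdh19 (95% confidence, log2), with an adjusted p of 0.999 for each. A change of 0.30, the size of the Kirrel3 fraction difference, lies inside each of these intervals in at least 1 direction.

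With odor, Kirrel2 and Pcdh10 were the members called, in the fit blocked on the replicate number. Without that block no member passed while all pools were kept. In the arrays titled GFP-, blocking on the replicate number placed Pcdh10 2.92-fold and Kirrel2 1.77-fold higher in odor pools than in vehicle pools. The Pcdh10 fold is uncertain in size, since Pcdh10 was above the 95th percentile of the negative controls on 0 of 8 vehicle arrays. Kirrel2 was also 2.01-fold higher in the arrays titled GFP+, where Pcdh10 was higher by a similar size without passing the test. That Kirrel2 call was lost without number 1, 2 or 3. Kirrel3, Pcdh19 and S100a5 passed in neither fraction, and Pcdh17 had lower values that did not pass. Odor and vehicle pools of 1 number deviated together over all genes, which is why the blocked fit is given beside the fit without the number. Among the arrays titled GFP+ alone, number 4 did so least (r = 0.0787) and its odor array ran closest to vehicle number 2.

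Kirrel2 pools of the same number differed by 1.19, 1.15, 0.91 and 0.78 (numbers 1 to 4, odor minus vehicle, log2) in the arrays titled GFP+ and by 0.70, 0.85, 1.05 and 0.70 in those titled GFP-. All 8 of these differences were positive. A higher odor value for all 4 numbers was found for 6.94% of genes in titled GFP+ and 9.51% in titled GFP-. In the titled GFP- fraction every odor pool was above every vehicle pool, which held for 2.44% of genes in this direction, whereas in titled GFP+ odor pool 1 at 14.14 lay below vehicle pool 3 at 14.27. With 4 group means and the pool as a random block, limma gave 1.01 ± 0.24 in titled GFP+ (adjusted p = 0.680) and 0.83 ± 0.24 in titled GFP- (adjusted p = 0.627). With the number as a block it gave 1.01 ± 0.11 (adjusted p = 0.0357, the smallest p of all genes) and 0.83 ± 0.08 (adjusted p = 0.00201). The titled GFP- call held without any one number, at 0.75 to 0.87 with adjusted p from 0.00600 to 0.0394. In titled GFP+ the difference stayed between 0.95 and 1.08, but its adjusted p was 0.246, 0.283 and 0.272 without number 1, 2 or 3 and 0.00790 without number 4, and with mature neuron centring it was above the threshold.

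Pcdh10 differed between odor and vehicle by 1.38, 0.80, 1.18 and 1.94 in the arrays titled GFP+ and by 1.91, 1.34, 1.27 and 1.67 in those titled GFP-. Odor and vehicle values did not overlap in either fraction, as held for 1.34% of genes in titled GFP+ and 2.44% in titled GFP- in this direction. The vehicle side of these differences was not above the 95th percentile of the negative controls on any array, and in titled GFP+ neither was the odor side, so their size is not ranked against the other genes. The fit without the number gave 1.32 ± 0.29 (adjusted p = 0.434) and 1.55 ± 0.29 (adjusted p = 0.157). With the number as a block it gave 1.32 ± 0.21 in titled GFP+ (adjusted p = 0.210) and 1.55 ± 0.15 in titled GFP- (adjusted p = 0.00201). The titled GFP- call held without any one number, at 1.43 to 1.64 with adjusted p from 0.00386 to 0.0394. Without vehicle pool 2, the brightest vehicle pool for Pcdh10, the unblocked difference passed the threshold in titled GFP+ (1.66, adjusted p = 0.0220) and titled GFP- (1.77, adjusted p = 0.00963). The blocked titled GFP+ difference passed without number 4 (1.12, adjusted p = 0.0419).

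Pcdh17 differed by 0.02, -1.15, -0.20 and 0.04 in the arrays titled GFP+ and by -0.25, -0.87, -0.56 and -0.46 in those titled GFP-. In the titled GFP- fraction its odor values, 10.79 to 11.26, lay below all vehicle values, 11.35 to 12.13, which held for 2% of genes in this direction. The difference there was -0.53 ± 0.20 without the number (adjusted p = 0.775) and -0.53 ± 0.12 with it (adjusted p = 0.200). In titled GFP+ it was -0.32 ± 0.20 in both fits, with pool 2 alone far from 0.

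Kirrel3 differed by -0.11, 0.23, -0.25 and -0.11 in the arrays titled GFP+ and by 0.22, 0.20, -0.00 and 0.05 in those titled GFP-, values that scatter around 0. The fit without the number gave -0.06 (95% interval -0.39 to 0.27) and 0.12 (-0.21 to 0.44). Pcdh19 likewise had values of both signs, from -0.48 to 0.13 and from -0.22 to 0.33, with fitted differences of -0.15 (-0.66 to 0.36) and -0.03 (-0.54 to 0.48). S100a5 was at 0.07 in titled GFP- (-0.22 to 0.36). The interval of S100a5 in titled GFP+ was -0.33 to 0.25. Changes beyond these bounds lie outside the intervals, and smaller ones lie inside.

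**Figure D3:**
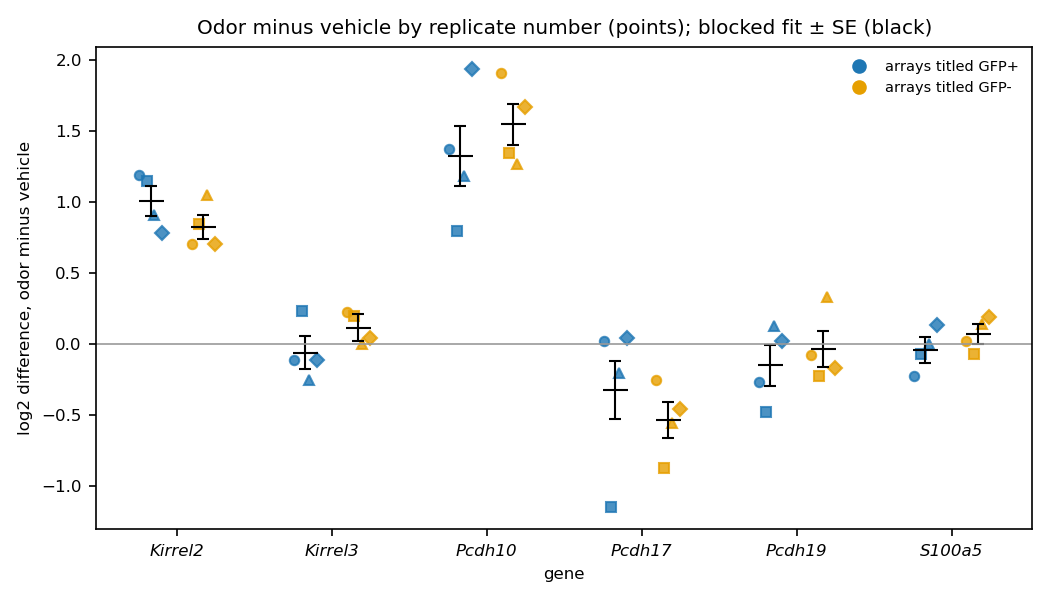
Log2 difference between odor and vehicle pools of the same replicate number in the arrays titled GFP+ (blue) and titled GFP- (orange), for the 5 genes and S100a5. Symbols tell the 4 numbers apart, and black marks are limma values blocked on the number ± SE. Kirrel2 and Pcdh10 lie above 0 for all 4 numbers in both fractions, from 0.70 to 1.94, and S100a5 and Kirrel3 lie near 0.

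Counted by the test, 0 of the 5 genes passed in either fraction without the number as a block. Of all genes, 0.00513% passed in titled GFP+ (1 gene, Olfr221, at -3.00) and 0% in titled GFP-. Blocked on the number, Olfr221 was at 2.80 in titled GFP-. At an unadjusted p under 0.05 in limma, 2 members (Kirrel2 and Pcdh10) stood in titled GFP+, beside 951 genes (4.88%). In titled GFP- 3 members stood (with Pcdh17), beside 1147 genes (5.88%). Both shares are near the 0.05 that the threshold alone would give. With the number as a block, 1 of the 5 passed in titled GFP+, beside 0.0103% of all genes (2 genes, Kirrel2 and Etv5, a transcription factor gene of the activity-linked list), and 2 of the 5 passed in titled GFP-, beside 0.0769% (15 genes, all higher). The markers of mature neurons had a median odor difference of 0.01 in titled GFP+ and 0.02 in titled GFP-, and 0 of 16 passed in either fit. Of other lists, with 0 genes passing in either fit, the medians in titled GFP+ were 1.26 for 4 erythroid, 0.63 for 18 immediate early, -0.32 for 13 macrophage and -0.21 for 12 sustentacular genes, and in titled GFP- -0.11, 0.18, -0.17 and -0.21. The part of these genes in the odor differences of Kirrel2 and Pcdh10 was not tested.

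The related genes were read from lists of adhesion and guidance genes. Their counts over all pools stand beside 27.3% of all genes lower in the titled GFP+ fraction and 15.7% higher. Of 8 other non-clustered protocadherins, 4 were lower in the titled GFP+ fraction over all pools and 0 higher. They were Pcdh8 (-1.33 ± 0.10), Pcdh7 (-1.23 ± 0.07), Pcdh1 (-0.64 ± 0.09) and Pcdh9 (-0.52 ± 0.09), which stayed below 0 under every centring. The list median was -0.38 beside -0.16 for all genes. Of the Kirrel relatives and binding partners, the 4 that were measured were lower, namely the family member Kirrel (-0.35), its relative Nphs1 (-0.30), and the scaffold genes Tjp1 (-0.28) and Cask (-0.21), which with mature neuron centring lie between -0.0624 and 0.0782, Tjp1 and Cask above 0. By treatment, 1 of the 4 passed as lower in vehicle pools and 1 in odor pools, beside 13.6% and 14.7% of all genes.

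Molecules of local axon segregation into glomeruli did not move as 1 group. Of 10, 4 were lower and 3 higher over all pools, with a median of -0.07. The ephrin receptor genes Epha5 (-0.99 ± 0.10), Epha7 (-0.64 ± 0.08) and Epha3 (-0.59) and Sema7a (-0.69 ± 0.07), a membrane-bound semaphorin gene, were lower, whereas its receptor gene Plxnc1 (0.89 ± 0.16), Efnb2 (0.64 ± 0.16) and Epha4 (0.51) were higher, these last 3 not under housekeeping centring. Of 12 measured molecules of global targeting along the axes of the bulb, 7 were lower and 1 higher, with a median of -0.28. The lower ones included the semaphorin receptor genes Plxna3 (-0.69) and Nrp2 (-0.40) and the repellent gene Slit1 (-0.56), and the higher one was Sema3a (0.51), which turns negative with housekeeping centring. Of the cyclic AMP cascade downstream of the odorant receptors, 10 of 13 genes were lower and 1 higher, the latter at 4.47. The list median was -0.27, and 7 of the 13 lie above 0 with mature neuron centring, as do 7 of the 12 targeting molecules.

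Of 10 measured activity-linked neuron genes, S100a5 among them, 6 were lower in titled GFP+ over all pools and 1 was higher, at 4.15. Pcp4l1 (-1.99), Lrrc3b (-1.67) and Etv5 (-1.21) were the farthest below 0 beside S100a5 (-1.29). With odor, and with the number as a block, Etv5 (0.93 ± 0.09, adjusted p = 0.00201) and Lrrc3b (0.85 ± 0.12, adjusted p = 0.0236) rose in the arrays titled GFP-. None of the other protocadherins, Kirrel relatives, segregation or targeting molecules passed in either fraction with the number as a block. Sema7a came near in titled GFP- (0.50 ± 0.08, adjusted p = 0.0826).

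**Figure D4:**
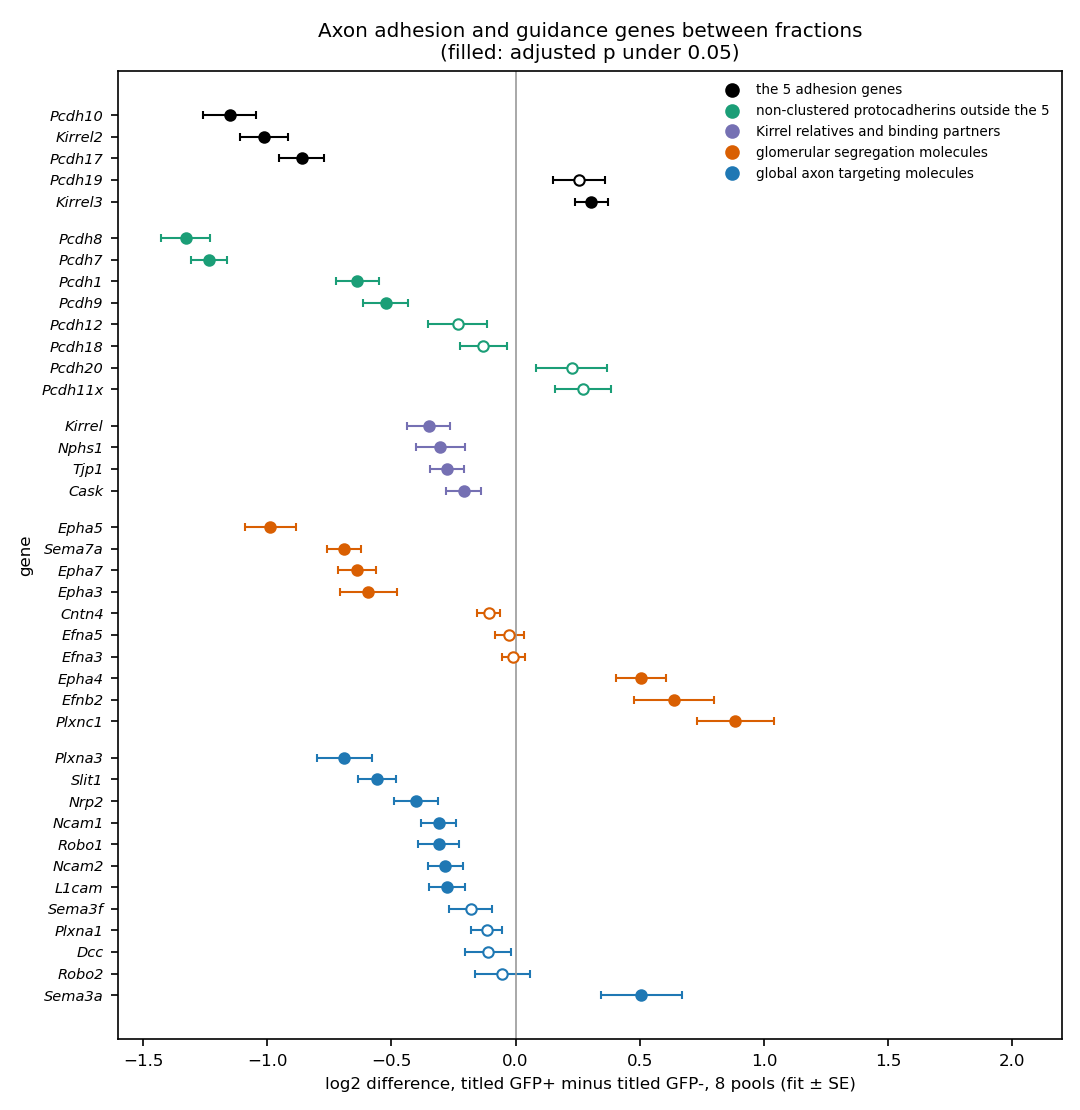
Log2 difference between fractions, titled GFP+ minus titled GFP-, over 8 pools (limma fit ± SE) for the 5 adhesion genes and 4 lists of related axonal genes. Filled symbols passed the threshold of 0.05 for the adjusted p. Pcdh10, Kirrel2 and Pcdh17 lie at the low end with Pcdh8, Pcdh7 and Epha5, while Plxnc1, Efnb2, Epha4 and Sema3a lie on the other side of 0.

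The genes whose signal ran most like each member over the 16 arrays were found by Pearson's r among 13652 genes, as a description. For Kirrel2 they were Etv5 (0.968), Elmo2 (0.954), Trim45 (0.948), Noct (0.941) and Sgpp2 (0.939), and the most opposite were Fau (-0.897), Cldn23 (-0.890) and Ifnar2 (-0.887). For Pcdh10 they were Olfr1112 (0.925), Scrn1 (0.916), Galnt16 (0.897), Sema7a (0.863) and Sv2c (0.862), against Ankrd44 (-0.842), Trmt112 (-0.840) and Plpp3 (-0.825). Etv5 and Sema7a, each first met above in a list, thus stood at the top for Kirrel2 and among the top 5 for Pcdh10.

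Kirrel3 ran most like Scaper (0.878), Mettl27 (0.854), Camk2g (0.827), Mtmr10 (0.825) and Sft2d2 (0.823), and most opposite to Mrpl14 (-0.914), Mettl15 (-0.898) and Ndufc1 (-0.878). Pcdh17 ran most like Bex2 (0.932), Mrps33 (0.927), Guk1 (0.923), Ssx2ip (0.917) and Ccdc113 (0.916), against Mlec (-0.928), Cbx5 (-0.918) and Pola2 (-0.905). Pcdh19 ran most like Mospd1 (0.908), Marchf7 (0.899), Rbbp7 (0.897), Tcea1 (0.874) and Mtmr3 (0.872), against Mga (-0.916), Tada3 (-0.913) and Dcun1d2 (-0.886). No gene stands among the nearest 5 of more than 1 member. The 2 arrays of a pool share their mice, and the spread over the 16 arrays holds the fraction and odor differences already given.

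Once group means were removed, which leaves the spread between pools, the protocadherins ran together over the 16 arrays, with r of 0.787 for Pcdh17 and Pcdh19, 0.735 for Pcdh10 and Pcdh17 and 0.540 for Pcdh10 and Pcdh19. Pool 2 was the highest of its group for Pcdh10 in all 4 groups. Kirrel2 ran against Pcdh19 (-0.593) and Pcdh17 (-0.459), and not with Pcdh10 within groups, although over all 16 arrays the r of Kirrel2 and Pcdh10 was 0.794. These are descriptions across arrays that share pools, with no test.

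Whether pools with a larger S100a5 difference between fractions also had a larger difference of each adhesion gene was tested over the 8 pools, 5 relations in all. The highest value was for Kirrel2, with Pearson's r = 0.511 (exact permutation p = 0.227, adjusted p = 0.822) and Spearman's rho = 0.381 (exact permutation p = 0.36, adjusted p = 0.713). Without odor pool 1 and vehicle pool 3, farthest from the median S100a5 difference, its r was 0.543. For the other genes Pearson's r and Spearman's rho, each with its exact permutation p, were -0.0654 (p = 0.908) and -0.214 (p = 0.619) for Kirrel3, 0.195 (p = 0.658) and 0.0476 (p = 0.935) for Pcdh10, -0.372 (p = 0.353) and -0.357 (p = 0.389) for Pcdh17, and 0.247 (p = 0.564) and 0.333 (p = 0.428) for Pcdh19. None of the 5 relations passed. Without the same 2 pools r was -0.695 for Kirrel3, -0.434 for Pcdh10, 0.0959 for Pcdh17 and 0.0136 for Pcdh19. Within the 4 pools of a treatment, too few for a test, r in odor and in vehicle pools was 0.588 and 0.730 for Kirrel2, -0.0309 and -0.695 for Kirrel3, 0.997 and -0.291 for Pcdh10, -0.294 and -0.294 for Pcdh17, and 0.0615 and 0.353 for Pcdh19, of opposite sign for Pcdh10.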

How the data were processed

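The deposited values are log2 signals of 16 arrays in 1 table for the series, which the authors made in Affymetrix Expression Console (from the submitters' processing notes). Its version, normalization and background correction are not stated in these sources. RNA amounts were 50 to 100 ng per the labels' protocols. The table held 28846 features, of which 19572 carried 1 gene symbol. Genes with several features were represented by their brightest on average, so that 67 features dropped out and 19505 genes remained, dim ones included.

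All genes were fitted together in limma 3.58.1 (R 4.3.3), using moderated two-sided tests whose prior variance followed the signal, and p-values were adjusted by Benjamini and Hochberg over the 19505 genes, with a threshold of 0.05. A call is an adjusted p under it, and 95% intervals are from the same fits. The model for the fractions held a term for each pool, leaving 6 residual degrees of freedom. The model for odor held 4 group means and treated arrays of a pool as correlated (0.164), leaving 12. The use of the replicate number as a block rests on these same data. Deviations of pool means from group means correlated at 0.216 to 0.389 between same-numbered odor and vehicle pools, each best with its own number. By fraction the range was 0.198 to 0.279 for titled GFP-, 4 of 4 best with their own number, and 0.0787 to 0.410 for titled GFP+, 3 of 4, number 4 being best with number 2. Replicates are pools of separate mice. The numbers come from the titles, which do not say what a number marks. The fraction fit and an odor fit without any block were run on simulated data in which all arrays were independent. At a simulated log2 change of 1, they recovered 57.5% to 68% of the changed genes. The odor fits with the pool or the number as a block were not simulated.

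All 5 members were named in every comparison, with S100a5 and Omp, up to 4 genes with the largest difference past the threshold per list (all where 5 or fewer passed; Efnb2, Epha3, Epha4, Olfr221 and Sema7a's odor value, were added after their values were seen), and the 5 most and 3 least alike genes of those above the 30th percentile of mean signal. The higher gene of the activity-linked list and that of the cyclic AMP cascade are given by value and not by name. Lists (21, with 197 of 221 genes measured) and members were chosen with earlier results of these data known. Alternatives were other scalings, other blocks, other handling of features, robust or untrended variances, and each pool left out. Correlations used scipy 1.17.1. The number of arrays, 4 per group, limits the precision.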

Additional observations from a re-analysis of the deposited data

Results flagged for a closer look

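In 5 of 40 groups of 4 values tested, 1 value stood apart, its gap to the nearest, as a share of the group's range, exceeding Dixon's 95% critical value, where chance gives about 1 in 20. In the odor arrays titled GFP-, Kirrel2 of pool 3 was high, with a gap of 0.863 of the range. In the vehicle arrays titled GFP- its pool 3 was high as well, at 0.907. The vehicle pool 1 difference of Kirrel2 between fractions, -1.75, stood apart at 0.916. Kirrel3 of vehicle pool 4 was high in the titled GFP+ fraction, at 0.848, and Pcdh10 of odor pool 2 was high in the titled GFP+ fraction, at 0.888.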

How the results depend on the processing

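The fraction calls of Kirrel2, Pcdh10 and Pcdh17 kept direction and side of the threshold under every alternative run, and so did the titled GFP- calls of Kirrel2 and Pcdh10 with the replicate number as a block. Scaling moved Kirrel3 and Pcdh19, the causes not being tested beyond the shift of all genes. Kirrel3 over all pools was -0.0687 with median and -0.65 with housekeeping centring, in odor pools -0.16 and -0.78 and, past the threshold, 0.34 with cyclic loess and 0.48 with mature neuron centring, and in vehicle pools 0.0253, -0.52 and, without the pool block, 0.39. Pcdh19 over all pools was -0.12, -0.70, 0.40 with cyclic loess and 0.54 with mature neuron centring, in odor pools -0.18 and -0.79, and in vehicle pools -0.0542, -0.60 and 0.62. Of the 5 genes, those higher numbered 2 over all pools with cyclic loess or mature neuron centring and 0 with median or housekeeping centring, 1 in odor pools with either of the first pair, and in vehicle pools 2 with mature neuron centring and 0 with median or housekeeping centring or no pool block, and those lower numbered 5 with housekeeping centring in each case. All genes split in vehicle pools into 2406 higher and 2658 lower, against 1818 and 12539 with median centring, 1193 and 16842 with housekeeping centring, 2792 and 1411 with cyclic loess and 4204 and 707 with mature neuron centring. In odor pools the split was 2502 and 2860, against 1902 and 12906, 1208 and 16976, 2922 and 1395 and 3668 and 859.

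The replicate block raised the members called from 0 to 1 in titled GFP+ (Kirrel2, 1.01, and 0.99 without a call, 0 members, once mature neuron centring was added) and from 0 to 2 in titled GFP- (Kirrel2 0.83, Pcdh10 1.55), and changed no other call of a member. Against S100a5, r was 0.112 for Kirrel3 with median centring, and -0.434 for Pcdh10 and 0.0959 for Pcdh17 without the 2 farthest pools.

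Leaving out 1 pool, the change of the fraction difference with odor ranged from -0.0324 to 0.30 for Kirrel2, from -0.25 to 0.0242 for Pcdh19 and from -0.19 to 0.00342 for S100a5. Pcdh19 over all pools ranged from 0.19 to 0.32, with 1 to 2 members higher. Odor minus vehicle in titled GFP+ ranged from -0.18 to 0.0767 for Kirrel3, 1.07 to 1.66 for Pcdh10 and -0.17 to 0.0820 for S100a5, and in titled GFP- from 1.40 to 1.77 for Pcdh10, -0.30 to 0.18 for Pcdh19 and -0.0225 to 0.12 for S100a5, with 0 to 1 members higher in each fraction. Leaving out 1 number from the blocked fit, titled GFP+ ranged from 0.95 to 1.08 for Kirrel2, -0.16 to 0.00248 for Kirrel3, 1.12 to 1.498 for Pcdh10 and -0.0985 to 0.0213 for S100a5, with 0 to 2 members called, and Pcdh19 in titled GFP- from -0.16 to 0.0298. The genes lower in odor pools, 2860, fell to 1632 without odor pool 1 and 1655 without odor pool 3, and those lower in vehicle pools to 1623 without vehicle pool 1. With the number as a block, all genes higher with odor numbered 0 to 90 in titled GFP+, 90 without number 4 and 0 without any other, and 5 to 21 in titled GFP-, 5 without number 1 or 2. Signals near the negative controls limit Pcdh10.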
